A study of Mus musculus with 8 samples.

Results

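The genes described here are 10 genes of corticosteroid reception, metabolism and response, chosen by name among the 26008 genes of the table. They are 2 receptors (Nr3c1 and Nr3c2), 3 steroid enzymes (Hsd11b1, Hsd11b2 and Cyp11a1) and 5 genes known as induced by corticosteroids (Sgk1, Fkbp5, Tsc22d3, Zbtb16 and Klf9). All 10 passed the filter on low values, a mean of at least 10 normalized counts, as did 19127 genes in all. Colonic biopsies of 8 male chimeric mice, 4 of each genotype, gave 1 RNA-seq library each. In both groups, the recipients were wild-type C57BL/6JRj mice, lethally irradiated at 7 weeks of age and examined 18 weeks after engraftment. Donors of the bone marrow were male mice, either penk-/- (B6.129-Penk-rstm1Pig/J) or wild-type (penk+/+). The deletion of the proenkephalin gene was thus restricted to cells arising from the graft, whereas the epithelium, muscle and enteric neurons of the recipients carried an intact gene. The question asked of the corticosteroid genes was whether their mRNA in the colon differed with the genotype of the grafted cells.

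Corticosterone, the main glucocorticoid of the mouse, binds both the glucocorticoid receptor, encoded by Nr3c1, and the mineralocorticoid receptor, encoded by Nr3c2. Aldosterone acts through the mineralocorticoid receptor in epithelia that express Hsd11b2, because the enzyme that Hsd11b2 encodes inactivates corticosterone before it reaches the receptor. The distal colon is such an epithelium, in which aldosterone increases sodium absorption through the epithelial sodium channel. Hsd11b1 encodes the reductase that regenerates corticosterone from its inactive form, and Cyp11a1 the mitochondrial enzyme that opens steroid synthesis from cholesterol. Ligand-bound receptors move to the nucleus and bind a palindromic element, made of the arms AGAACA and TGTTCT separated by 3 bases.

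This element was searched in the GRCm39 genome because the induced genes are defined by their response to the receptors that bind it. In windows reaching 50 kb on each side of the start of the canonical transcript, a perfect match of both arms was found for 3 of the 10 genes and for 1.95% of 19040 windows of the genes tested. The element reads the same on both strands, so that 1 search covered both. The matches are shown with 7 bases on each side, on the strand of the gene, and capitals mark the 2 arms.
Sgk1: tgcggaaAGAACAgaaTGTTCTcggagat
Fkbp5: ttgtttgAGAACAgctTGTTCTaggcttt
Nr3c2: ggaataaAGAACAtacTGTTCTctgcaga
The Sgk1 sequence (chr10:21869593-21869621, plus strand) was centred 958 bases before the start of the canonical transcript, in an intron of longer Sgk1 transcripts. In the 5000 bases before the start, 9 of 19034 windows (0.0473%) held a perfect match, and Sgk1 was the only one of the 10 genes with a match of at most 1 mismatch, which 3.51% of the windows held. The Fkbp5 sequence (chr17:28661386-28661414, minus strand) lay in an intron, 43752 bases after the start. The Nr3c2 sequence (chr8:77601940-77601968, plus strand) lay between protein-coding genes, 26827 bases before the start. The other 7 genes had no perfect match in these windows. A match of letters is a description of the genome and not a measurement of receptor binding.

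The deposited values are normalized counts, obtained by scaling the reads of each library by its size factor. Reads could be recovered in 7 libraries, with 33.1 M to 50.7 M reads counted on genes (median 37.3 M), and the sums of normalized counts ranged from 36.8 M to 41.8 M in the 8 libraries. Penk mRNA did not tell the groups apart in whole biopsies, with 453 to 616 normalized counts in penk-/- and 473 to 636 in penk+/+ chimeras. Of the 12 epithelium markers, all were detected, and their summed normalized counts ranged from 510961 to 706563 in penk-/- and from 644863 to 766069 in penk+/+ chimeras. The sums of the 8 smooth muscle markers ranged from 152766 to 260902 and from 161478 to 250504. Among markers of cells that derive from the graft, all 8 of macrophages and dendritic cells had higher means in penk-/- chimeras (median log2 fold change 0.27) and all 7 of T lymphocytes lower means (median -0.23), with 0 markers whose groups did not overlap in either list. Pbsn, which encodes a protein secreted by the prostate, reached 105658 normalized counts in penk-/- replicate 3 and 111024 in penk+/+ replicate 4, against 0 to 13425 in the other 6 libraries. These 2 libraries stand apart from the others, and the values without them are given beside the results they touch.

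Genotypes were compared with limma on log2(value + 1), two-sided, with Benjamini-Hochberg adjustment over the 19127 genes. An adjusted p below 0.05 was obtained for 0 of the 10 corticosteroid genes and for 0% of all genes tested. In penk-/- chimeras 7 of the 10 genes had a lower mean and 3 a higher one, with a median log2 fold change of -0.24, whereas 9347 of all genes tested were lower and 9780 higher, with a median of 0.00512. An unadjusted p below 0.05 was obtained for 3 of the 10 genes, Nr3c2, Hsd11b2 and Klf9, which were all lower in penk-/- chimeras. Over all genes tested, 5.33% reached this p in the lower and 4.3% in the higher direction. Klf9 was the only gene of the 10 that was lower in the highest penk-/- than in the lowest penk+/+ chimera, a pattern found for 2.74% of all genes, and 2.89% of them showed the opposite pattern. The 10 genes were chosen with earlier results of these data known, so that these counts are a description only. No test was made on them.

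**Figure D1:**
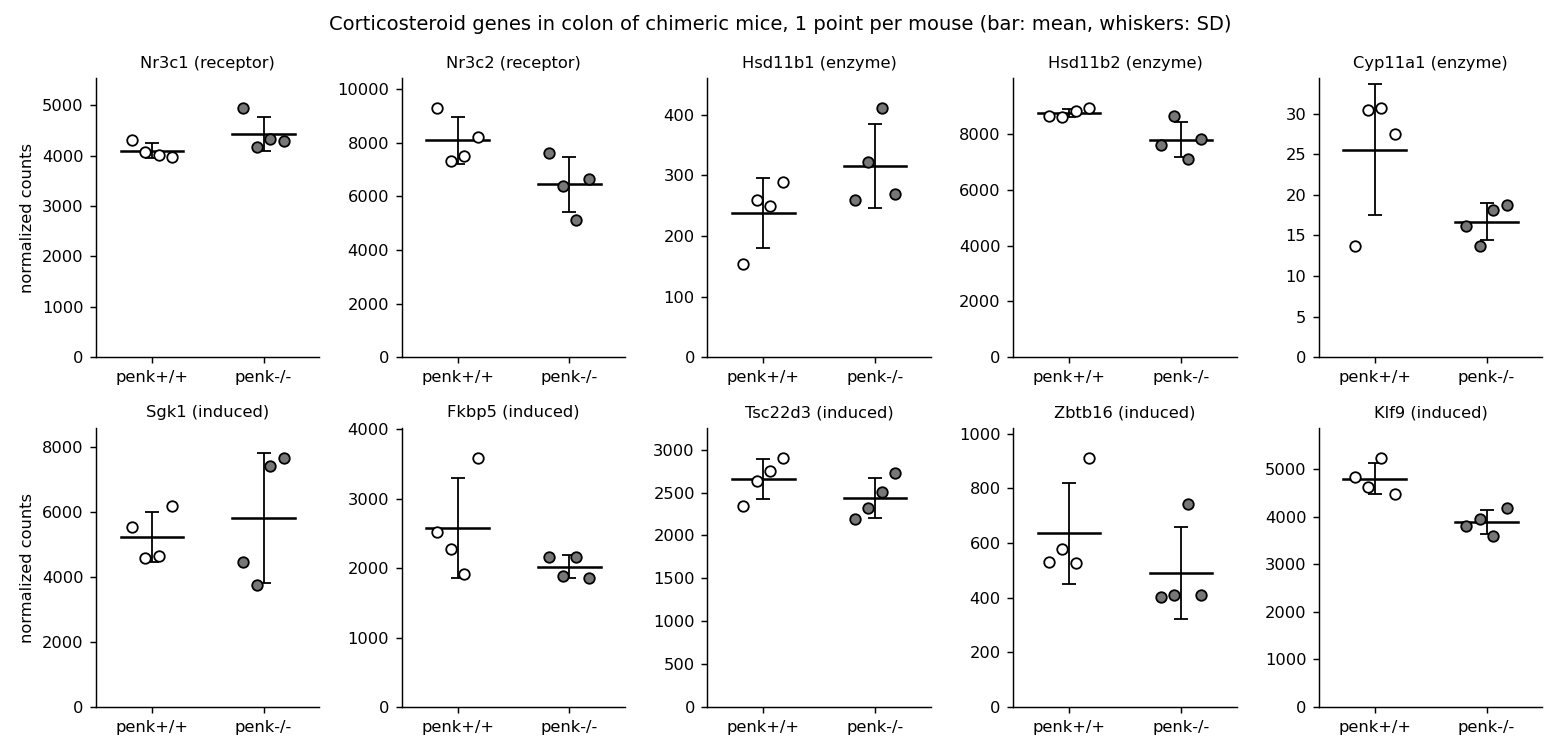
Normalized counts of the 10 corticosteroid genes (vertical axes, from 0) in penk+/+ (white) and penk-/- (gray) chimeras, 1 point per mouse, with the mean (bar) and SD (whiskers) of 4 mice. The groups of Klf9 do not overlap, those of Nr3c2 and Hsd11b2 overlap slightly, and Zbtb16 has 1 high point in each group.

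The receptor genes went in opposite directions. Nr3c2 (ENSMUSG00000031618, chr8:77625576-77971863, plus strand), encoding the mineralocorticoid receptor, had 7631, 6379, 5117 and 6670 normalized counts in penk-/- replicates 1 to 4, against 9292, 7338, 7513 and 8234 in the penk+/+ replicates. Only penk-/- replicate 1 exceeded a penk+/+ chimera, and the 3 lowest values were all those of penk-/- chimeras. Means were 6449 ± 1037 for penk-/- and 8094 ± 888 for penk+/+ mice (SD, n = 4 each), or 79.7% of the penk+/+ level. The log2 fold change was -0.34 (standard error or SE 0.12, 95% confidence interval -0.61 to -0.06), with an unadjusted p of 0.0215 and an adjusted p of 0.450 with limma. The exact permutation test over the 70 assignments of the libraries gave a two-sided p of 0.0857, and 0.0286 is the smallest it can give with 4 mice against 4.

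Nr3c1 (ENSMUSG00000024431, chr18:39543598-39652474, minus strand), encoding the glucocorticoid receptor, was among the steadiest of the 10 genes, its highest library exceeding its lowest by a factor of 1.24. It had 4941, 4174, 4328 and 4286 normalized counts in penk-/- replicates 1 to 4, against 4321, 4070, 4023 and 3979 in the penk+/+ replicates. The groups overlapped through penk+/+ replicate 1, and penk-/- replicate 1 was the highest. With 4432 ± 345 and 4098 ± 153 (SD, n = 4 each), the log2 fold change was 0.11 (SE 0.07, limma adjusted p = 0.640), and 0.06 without penk-/- replicate 1. The interval from -0.04 to 0.26 on the log2 scale bounds the difference that these mice allow.

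Within each library, the ratio of Nr3c2 to Nr3c1 per kb of transcript did not depend on the size factor. This ratio was chosen after the values were seen and is given without a test. It was 1.66, 1.64, 1.27 and 1.67 in penk-/- replicates 1 to 4 and 2.31, 1.94, 2.00 and 2.22 in penk+/+ replicates 1 to 4. The groups did not overlap, with means of 1.56 ± 0.19 and 2.12 ± 0.18 (SD, n = 4 each). Mineralocorticoid receptor mRNA thus exceeded glucocorticoid receptor mRNA in every mouse, by less in the penk-/- chimeras. The share of other gene ratios without overlap was not determined. Nr3c2 had a correlation of 0.89 with the epithelium score defined below, and Nr3c1 one of 0.25. The part of tissue composition in this ratio was not tested.

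Nr3c2 values followed those of epithelium markers. The epithelium score of a library is the mean over the 12 markers of log2(value + 1) centred on the mean of each marker. It was lowest in penk-/- replicate 3 (-0.32), the library with the least Nr3c2, and highest in penk+/+ replicate 1 (0.22), the library with the most. Of the epithelium markers, 9 were lower and 3 higher in penk-/- chimeras, with a median log2 fold change of -0.13, and 0 of the 12 had groups that did not overlap. With the difference between the epithelium and smooth muscle scores as a covariate, the log2 fold change of Nr3c2 was -0.26 (unadjusted p = 0.00768, adjusted p = 0.255 with limma). Without this covariate it was -0.34 (unadjusted p = 0.0215, adjusted p = 0.450 with limma). Over all genes tested, 2254 had an unadjusted p below 0.05 with the covariate, against 1020 lower and 822 higher without it. Nr3c2 had a correlation of 0.76 with the covariate and 0.89 with the epithelium score alone, which was not used as a covariate. In bulk biopsies, fewer cells of a type and less RNA per cell cannot be told apart. The 3 genes most like Nr3c2 over the 8 libraries were Prr15l (r = 0.995), Btnl5-ps (r = 0.993) and Gtpbp2 (r = 0.993), among 14832 genes with a mean of at least 50. Nr3c2 shares 751 exon bases with Gm10649 on the opposite strand, a gene with a mean of 16.7 normalized counts.

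The 3 steroid enzymes were measured at very different levels. Hsd11b2 (ENSMUSG00000031891, chr8:106245369-106250620, plus strand) had 7619, 8634, 7100 and 7833 normalized counts in penk-/- replicates 1 to 4, against 8647, 8619, 8824 and 8916 in the penk+/+ replicates. The penk+/+ chimeras lay close together and above the penk-/- chimeras, except that penk-/- replicate 2 exceeded penk+/+ replicate 2 by less than the spread of the penk+/+ group. Means were 7796 ± 638 for penk-/- and 8751 ± 142 for penk+/+ mice (SD, n = 4 each). The log2 fold change was -0.17 (SE 0.07, 95% confidence interval -0.32 to -0.02), with an unadjusted p of 0.0284 and an adjusted p of 0.460 with limma, and the exact permutation test gave a two-sided p of 0.0571.

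Hsd11b1 (ENSMUSG00000016194, chr1:192903918-192946489, minus strand) pointed the other way. Its normalized counts were 260, 322, 411 and 268 in penk-/- replicates 1 to 4, against 154, 259, 249 and 289 in the penk+/+ replicates. The groups overlapped through penk+/+ replicate 4. Means were 315 ± 69.4 for penk-/- and 238 ± 58.2 for penk+/+ mice (SD, n = 4 each), with a log2 fold change of 0.42 (SE 0.21, limma adjusted p = 0.578), which was 0.22 without penk+/+ replicate 1. Penk-/- replicate 3, with the most Hsd11b1, had the lowest epithelium score, and penk+/+ replicate 1, with the least Hsd11b1, the highest. The fibroblast score was lowest in penk+/+ replicate 1 (-0.53) and highest in penk-/- replicate 3 (0.25), and all 7 fibroblast markers were higher in penk-/- chimeras, with a median log2 fold change of 0.16. With the difference between the epithelium and smooth muscle scores as a covariate, the log2 fold change of Hsd11b1 was 0.32 (unadjusted p = 0.116, adjusted p = 0.542 with limma). The part of tissue composition in the Hsd11b1 values was not tested further. The gene lies on the strand opposite to Lamb3 (mean of 7678 normalized counts) and shares 0 exon bases with it. The strand setting of the counting is not given in the sources used here.

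The inactivating enzyme exceeded the regenerating one in every mouse. Per kb of transcript, the ratio of Hsd11b2 to Hsd11b1 was 26.0, 23.8, 15.3 and 25.9 in penk-/- replicates 1 to 4 and 49.7, 29.5, 31.4 and 27.4 in penk+/+ replicates 1 to 4. The groups did not overlap, with means of 22.8 ± 5.05 and 34.5 ± 10.3 (SD, n = 4 each), and penk+/+ replicate 1 stood well above its group. This ratio was also chosen after the values were seen. The correlation with the epithelium score was 0.44 for Hsd11b2 and -0.81 for Hsd11b1, and the part of tissue composition in the ratio was not tested.

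**Figure D2:**
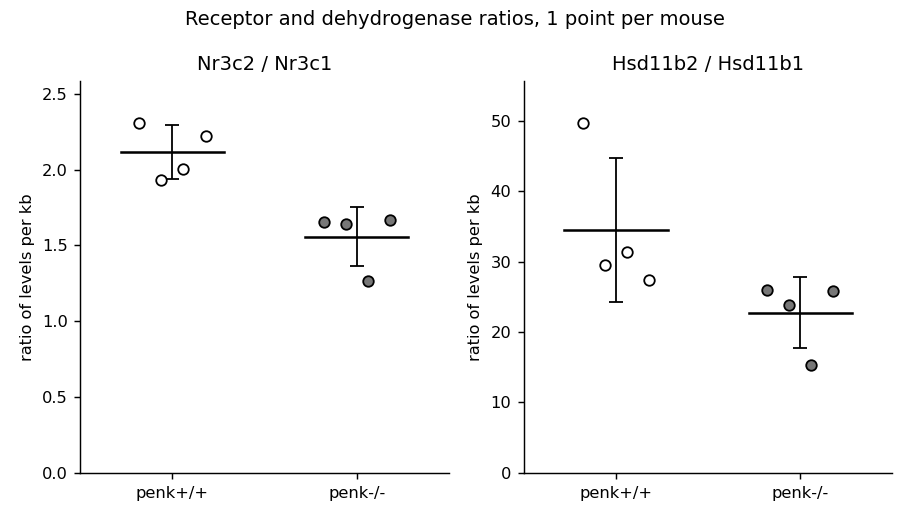
Ratio of the levels per kb of transcript of Nr3c2 to Nr3c1 (left) and of Hsd11b2 to Hsd11b1 (right), 1 point per mouse, with the mean (bar) and SD (whiskers) of 4 mice, on axes from 0. In both panels the penk-/- chimeras lie below the penk+/+ chimeras without overlap, with mean ratios of 1.56 and 2.12 on the left and of 22.8 and 34.5 on the right. Both ratios were chosen after the values were seen and were not tested.

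Cyp11a1 (ENSMUSG00000032323, chr9:57913694-57935933, plus strand) was close to the filter on low values. It had 16.2, 13.7, 18.2 and 18.8 normalized counts in penk-/- replicates 1 to 4, against 13.7, 30.4, 30.7 and 27.4 in the penk+/+ replicates, from 11 to 32 reads in the 7 libraries with recovered reads. In penk+/+ chimeras, 3 mice were above all penk-/- chimeras and replicate 1 was as low as the lowest of them. The log2 fold change of -0.53 (SE 0.29, limma adjusted p = 0.607) is on a scale that understates changes of low genes. Cyp11a1 shares 145 exon bases with Gm17322 on the same strand, so that its count is uncertain. Of the other markers of the adrenal cortex, Mc2r, the receptor of corticotropin, had 0 to 10.9 normalized counts, and Star, the cholesterol carrier of steroidogenic cells, 214 to 255. Cyp11b1, Cyp11b2 and Cyp21a1 were looked for by name and were not among the genes of the table.

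Levels of the 10 genes were compared per kb of canonical transcript. Hsd11b2 ranked highest, with 4453 ± 358 normalized counts per kb (SD, n = 8), above 97.4% of all genes tested. Sgk1 followed with 2249 ± 584 and Nr3c2 with 1205 ± 208. Hsd11b2 and Sgk1 were above the next gene in the order in 8 of 8 libraries. Nr3c2 exceeded Tsc22d3, the next with 1020 ± 98.7, in 7 of 8. Nr3c1 (658 ± 47.1), Fkbp5 (643 ± 159) and Klf9 (551 ± 70.9) lay close together. Nr3c1 exceeded Fkbp5 in 5 of 8 libraries and Fkbp5 exceeded Klf9 in 6 of 8, so that the order of these neighbours does not hold beyond the spread between mice. Hsd11b1 (168 ± 43.9), Zbtb16 (73.1 ± 23.5) and Cyp11a1 (9.57 ± 3.28) followed, and each gene from Klf9 on was above the next in 8 of 8 libraries.

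**Figure D3:**
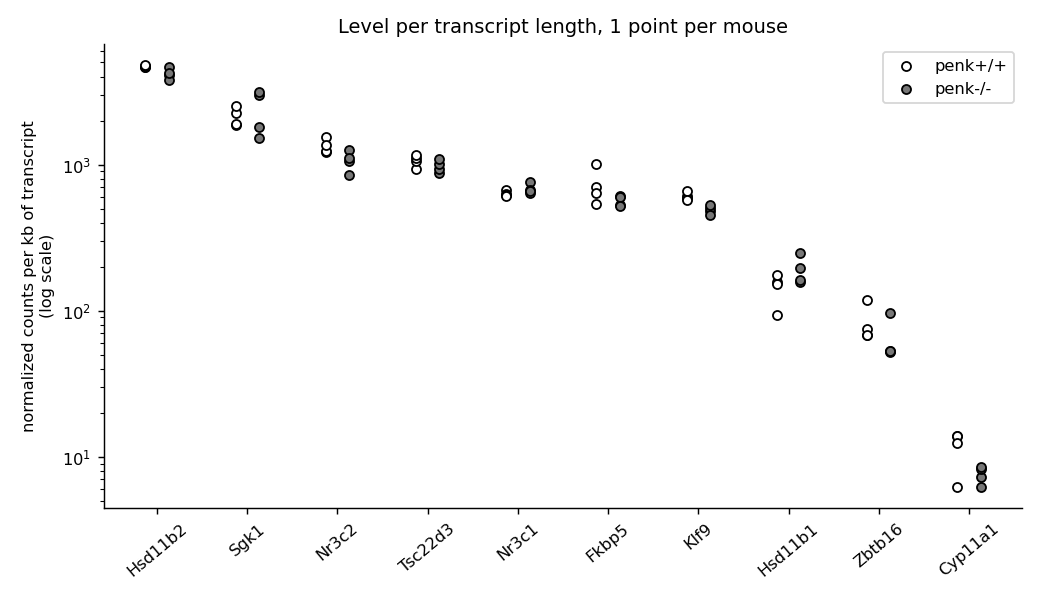
Normalized counts per kb of canonical transcript (log scale) of the 10 genes in order of their mean, 1 point per mouse, penk+/+ in white and penk-/- in gray. Levels run from 4453 for Hsd11b2 to 9.57 for Cyp11a1, and the points of Nr3c1, Fkbp5 and Klf9 share a range.

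Of the 5 induced genes, 4 had a lower and 1 a higher mean in penk-/- chimeras. Klf9 (ENSMUSG00000033863, chr19:23118187-23148497, plus strand), encoding a transcription factor of the Krüppel-like family, showed the clearest difference. Its normalized counts were 3819, 3951, 3588 and 4186 in penk-/- replicates 1 to 4, against 4846, 4639, 5240 and 4483 in the penk+/+ replicates. The highest penk-/- chimera was below the lowest penk+/+ chimera. Means were 3886 ± 250 for penk-/- and 4802 ± 328 for penk+/+ mice (SD, n = 4 each), or 80.9% of the penk+/+ level. The log2 fold change was -0.31 (SE 0.07, 95% confidence interval -0.46 to -0.15), with an unadjusted p of 0.00158, an adjusted p of 0.339 with limma, and the smallest two-sided p of the exact permutation test, 0.0286. By its unadjusted p, Klf9 ranked 86 of the 19127 genes tested.

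Klf9 is also known as an output of the circadian clock. Of 15 clock genes, 10 had a lower and 5 a higher mean log2 value in penk-/- chimeras (median log2 fold change -0.08), and 0 passed an adjusted p of 0.05 with limma. Nr1d1, Nr1d2 and Dbp were lower without overlap, as were 2.74% of all genes, with 34.2%, 56.9% and 38.6% of the penk+/+ level. Cry1 and Per2 had log2 fold changes of 0.51 and 0.40 in the other direction. The mean clock score, computed as for epithelium, ranged from -0.22 to -0.05 in penk-/- and from 0.04 to 0.34 in penk+/+ chimeras. Over the 8 libraries, this score had a correlation of 0.59 with Klf9, 0.80 with Fkbp5, 0.77 with Zbtb16, 0.76 with Tsc22d3 and 0.34 with Sgk1. For the receptors and enzymes it was 0.62 with Cyp11a1, 0.52 with Hsd11b2, 0.50 with Nr3c2, -0.61 with Nr3c1 and -0.25 with Hsd11b1. The groups did not overlap in this score, so that genes differing with genotype tend to correlate with it. The time of day of the sampling is not given in the sources used here. The part of the clock in the values of Klf9 and the other induced genes was not tested. In the 6 libraries without the highest Pbsn, Klf9 kept a log2 fold change of -0.30 and groups that did not overlap. The 3 genes most like Klf9 over the 8 libraries were Trim5 (r = 0.977), 1700123M08Rik (r = 0.974) and Cbr4 (r = 0.971). Klf9 shares 333 exon bases with Gm56648 on the opposite strand, a gene with a mean of 16.1 normalized counts.

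Zbtb16 (ENSMUSG00000066687, chr9:48563141-48748664, minus strand), encoding the zinc finger factor PLZF, had a similar difference with a larger spread. It had 404, 409, 744 and 409 normalized counts in penk-/- replicates 1 to 4, against 530, 578, 526 and 911 in the penk+/+ replicates. Each group held 3 close values and a high one, and the high values were those of the 2 libraries with the most Pbsn. With all 8 libraries, the log2 fold change was -0.39 (SE 0.24, limma adjusted p = 0.646). Without these 2 libraries, means were 407 ± 2.79 for penk-/- and 545 ± 28.8 for penk+/+ mice (SD, n = 3 each), the log2 fold change was -0.42 (unadjusted p = 0.00137, adjusted p = 0.336 with limma), and the groups did not overlap. Leaving out the highest Zbtb16 value of each group narrows the spread by itself. In the same 6 libraries, 2 of the 10 genes, Klf9 and Zbtb16, were lower with an unadjusted p below 0.05 and without overlap. Among all genes tested there, 4.7% were lower with such a p and 7.62% were lower without overlap. Left out singly, penk-/- replicate 3 moved the log2 fold change of Zbtb16 to -0.60 and penk+/+ replicate 4 moved it to -0.20.

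The receptors and enzymes were also compared without these 2 libraries. In the other 6, the log2 fold change was -0.22 for Nr3c2 (adjusted p = 0.598 with limma), -0.12 for Hsd11b2 (adjusted p = 0.659) and 0.39 for Hsd11b1 (adjusted p = 0.632). It was 0.11 for Nr3c1 and -0.52 for Cyp11a1. Hsd11b1 was higher without overlap in these 6 libraries, with 283 ± 33.6 against 221 ± 57.7 (SD, n = 3 each). Its lowest penk-/- value, 260, was barely above its highest penk+/+ value, 259. The share of all genes higher without overlap there is not given. Each of the 10 genes kept the direction it had with 8 libraries.

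**Figure D4:**
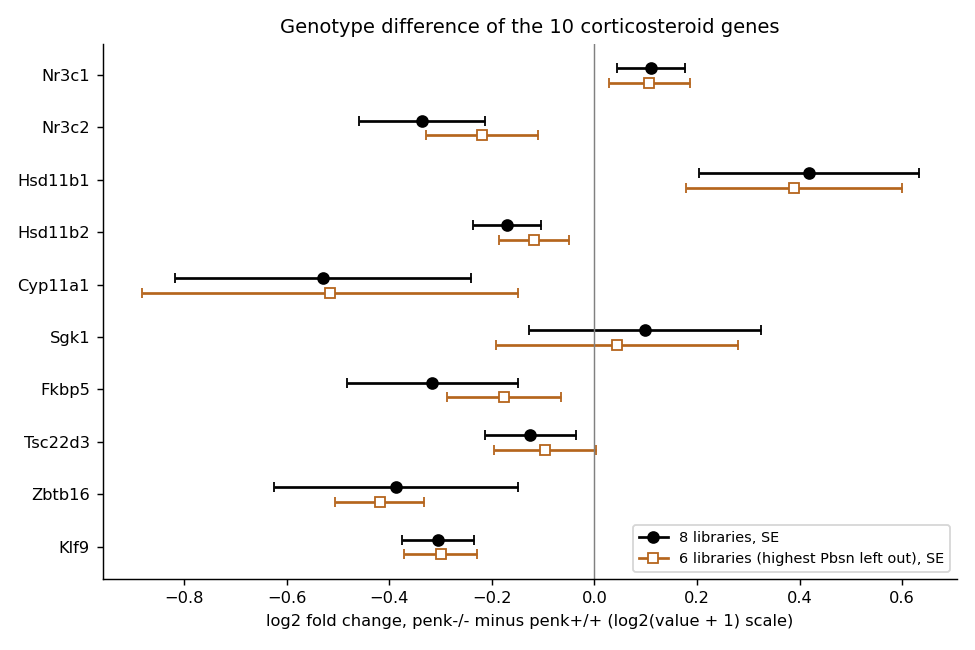
Log2 fold change between penk-/- and penk+/+ chimeras (horizontal axis, log2(value + 1) scale) of the 10 genes in 8 libraries (black circles) and in the 6 libraries without the highest Pbsn (open squares). Bars are standard errors, and that of Zbtb16 shrinks from 0.24 to 0.09 whereas its fold change stays near -0.4. The libraries left out hold the highest Zbtb16 value of each group.

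Fkbp5 (ENSMUSG00000024222, chr17:28618058-28737521, minus strand), encoding a cochaperone that lowers the affinity of the glucocorticoid receptor for its ligand, had 2162, 1890, 2159 and 1857 normalized counts in penk-/- replicates 1 to 4, against 2517, 2276, 1913 and 3587 in the penk+/+ replicates. The penk-/- chimeras lay close together, and penk+/+ replicate 4, the library with the most Pbsn, was far above the others, whereas penk+/+ replicate 3 lay among the penk-/- chimeras. The log2 fold change was -0.32 (SE 0.17, limma adjusted p = 0.591) with all libraries, and -0.14 without penk+/+ replicate 4. Tsc22d3 (ENSMUSG00000031431, chrX:139440091-139501408, minus strand), encoding the anti-inflammatory leucine zipper protein GILZ, had 2197, 2319, 2511 and 2726 normalized counts in penk-/- replicates 1 to 4, against 2342, 2633, 2751 and 2903 in the penk+/+ replicates. The groups overlapped broadly, and the log2 fold change was -0.12 (SE 0.09, limma adjusted p = 0.695). It was -0.08 without penk-/- replicate 1 and likewise without penk+/+ replicate 4.

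Sgk1 (ENSMUSG00000019970, chr10:21758083-21875802, plus strand), encoding the kinase through which aldosterone maintains the epithelial sodium channel at the cell surface, was the only induced gene with a higher mean in penk-/- chimeras. It had 4464, 3757, 7407 and 7652 normalized counts in penk-/- replicates 1 to 4, against 5523, 4564, 4647 and 6167 in the penk+/+ replicates. The penk-/- chimeras held both the 2 highest and the 2 lowest values, so that the penk+/+ values lay within the range of the penk-/- values. Means were 5820 ± 1998 for penk-/- and 5225 ± 763 for penk+/+ mice (SD, n = 4 each), and the log2 fold change of 0.10 (SE 0.23, limma adjusted p = 0.924) lay within the variation among mice. Its 95% confidence interval ran from -0.41 to 0.61, which includes the fold changes of the other 4 induced genes.

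The genes whose pattern was most like each of the other members were likewise ranked over the 8 libraries, which share the size factors and the tissue composition described above. For Nr3c1 they were Ttc9c, Baz1a and Rnft1 (r from 0.959 to 0.974), for Hsd11b1 Mtap and Nle1 (0.968 and 0.966), and for Hsd11b2 Pax8, Acvr1 and Neat1 (0.963 to 0.975). For Cyp11a1 they were Gm10432, Gm10044 and 2010007H06Rik (0.918 to 0.946), and for Sgk1 Rfxap, Mdm2 and Pcbp2 (0.904 to 0.910). For Fkbp5 they were Mtmr4, Smim29 and Gm15848 (0.964 to 0.976), for Tsc22d3 C030034I22Rik, B4galnt4 and Gpx7 (0.940 to 0.962), and for Zbtb16 9230116L04Rik, Ago4 and Ufl1 (0.963 to 0.980). With 8 libraries and 14832 genes compared, correlations of this size are a description of likeness only. None of the 10 genes was among the 3 genes most like another.

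Other genes of the pathway were taken from 4 lists. These lists were chosen with earlier results of these data known, so that their counts are a description and not a test. Aldosterone-regulated sodium transport comprised 15 genes, of which 14 were tested. Of these, 5 were lower and 1 higher with an unadjusted p below 0.05, against 5.33% and 4.3% of all genes tested, 0 passed the adjusted p, and the median log2 fold change was -0.19. Scnn1g encodes the gamma subunit of the sodium channel and had 89.9, 135, 143 and 140 normalized counts in penk-/- replicates 1 to 4, against 310, 335, 417 and 369 in the penk+/+ replicates, without overlap (log2 fold change -1.50, limma adjusted p = 0.132). Scnn1b, encoding the beta subunit, had 470 ± 31.5 normalized counts for penk-/- and 644 ± 63.1 for penk+/+ mice (SD, n = 4 each), again without overlap (log2 fold change -0.45, adjusted p = 0.323). Lower values without overlap were found for 2.74% of all genes tested. The sodium pump subunit gene Atp1b1 and the scaffold gene Cnksr3 were also on the lower side, with log2 fold changes of -0.25 and -0.40. The alpha subunit gene Scnn1a had a log2 fold change of -0.14 (SE 0.16), and Rasd1, a small GTPase, 0.27. In the 6 libraries without the highest Pbsn, 4 of the 14 genes were lower and 0 higher with an unadjusted p below 0.05, against 4.7% and 4.36% of all genes tested there.

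Other glucocorticoid-induced genes numbered 22, of which 21 were tested and Mt2 was below the filter. Of these, 3 were lower and 1 higher with an unadjusted p below 0.05, against 5.33% and 4.3% of all genes tested. The median log2 fold change was -0.04. Nfkbia, encoding the inhibitor of NF-κB, had 1969, 1652, 2006 and 2357 normalized counts in penk-/- replicates 1 to 4, against 3271, 4189, 2810 and 2394 in the penk+/+ replicates, without overlap (log2 fold change -0.65, limma adjusted p = 0.341). Over all genes tested, 2.74% were lower without overlap. Zfp36, whose product destabilizes cytokine mRNAs, had a log2 fold change of -0.69 (SE 0.26), and the phagocytic receptor gene Mertk one of -0.27 (SE 0.10). Errfi1, encoding an inhibitor of the EGF receptor, had one of 0.28 (SE 0.11). The most abundant genes of this list, Glul, Tsc22d1 and Rhob, had log2 fold changes of 0.13, 0.12 and -0.08. Klf15 and Mt1 were highest in the 2 libraries with the most Pbsn, Klf15 with 444 and 397 normalized counts and at most 139 elsewhere.

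Receptor chaperones and coregulators had small fold changes, from -0.21 to 0.15 on the log2 scale. All 18 were tested, with a median log2 fold change of 0.03. Of them, 0 was lower and 1 higher with an unadjusted p below 0.05, against 5.33% and 4.3% of all genes tested. The 1 higher gene, Ptges3, encoding the p23 cochaperone of the receptor complex, had 4543 ± 234 normalized counts for penk-/- and 4155 ± 146 for penk+/+ mice (SD, n = 4 each) without overlap, with a log2 fold change of 0.13 (adjusted p = 0.515 with limma). Higher values without overlap were found for 2.89% of all genes tested. The most abundant chaperone genes, Hspa8, Hsp90ab1 and Hsp90b1, had log2 fold changes of 0.07, 0.03 and -0.09.

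Steroid synthesis and inactivation comprised 19 genes, of which 9 were in the table and 8 were tested. The steroid reductase gene Srd5a1 was higher (443 ± 63.5 against 342 ± 27.1, log2 fold change 0.37, limma adjusted p = 0.408) and Srd5a2 was lower (816 ± 176 against 1040 ± 72.3, log2 fold change -0.37, adjusted p = 0.452) with an unadjusted p below 0.05 (SD, n = 4 each). Over all genes tested, 4.3% were higher and 5.33% lower with such a p. The median log2 fold change of the 8 genes was 0.05. Nr5a2, the nuclear receptor known to drive intestinal steroid synthesis, had 2723 ± 375 normalized counts for penk-/- and 2597 ± 167 for penk+/+ mice (SD, n = 4 each). H6pd, which supplies the cofactor of the Hsd11b1 enzyme, had a log2 fold change of 0.05 (SE 0.23).

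**Figure D5:**
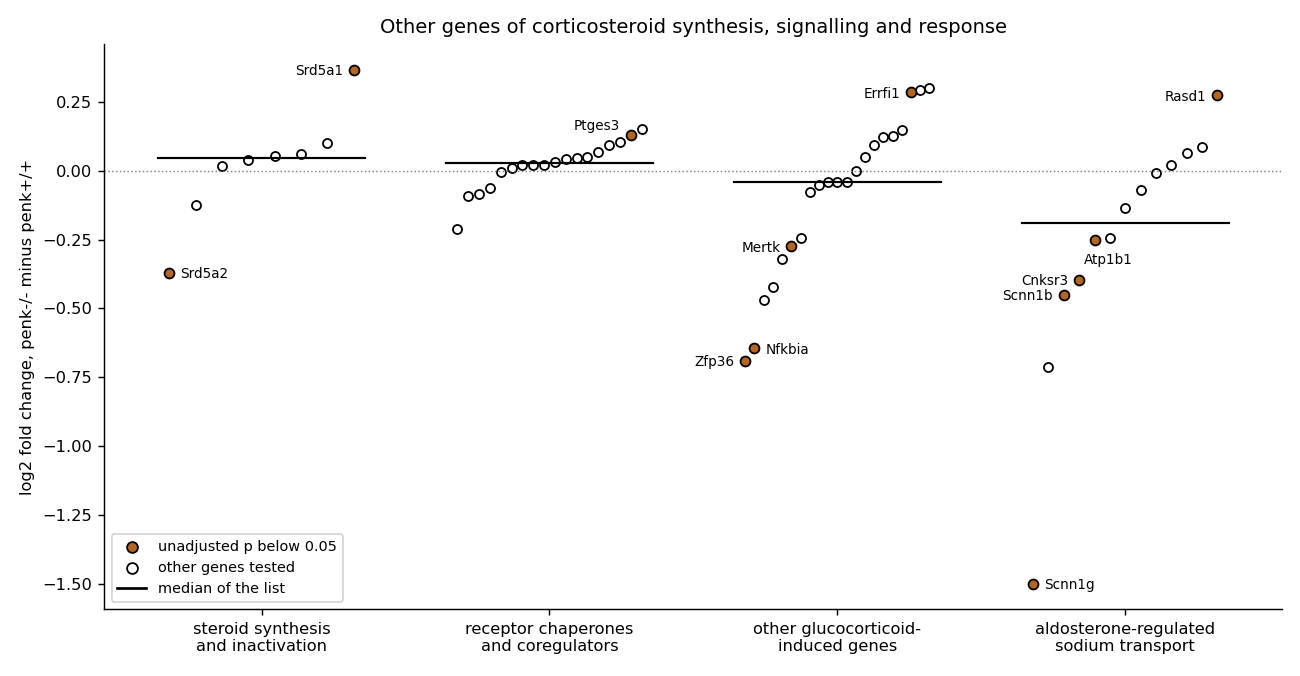
Log2 fold change between penk-/- and penk+/+ chimeras (vertical axis) of the genes tested in 4 pathway lists, 1 point per gene in increasing order, with genes at an unadjusted p below 0.05 filled and named and the median of each list as a bar. A sodium transport gene that is not reported here is not drawn. The sodium transport list has the lowest median, -0.19, and Scnn1g lies far below all other genes.

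With DESeq2 on the reads recovered in 7 libraries, penk-/- replicate 1 being left out, Nr3c2 (log2 fold change -0.42, adjusted p = 0.0396) and Klf9 (log2 fold change -0.30, adjusted p = 0.0443) passed an adjusted p of 0.05 in the lower direction, as did 2.01% of all genes that this test adjusted. With edgeR on the same reads, 0 of the 10 genes did. The library left out held the only penk-/- value of Nr3c2 above a penk+/+ value. Without it, limma gave Nr3c2 a log2 fold change of -0.42 (unadjusted p = 0.0054, adjusted p = 0.287).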

How the data were processed

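Colonic RNA of 4 penk-/- and 4 penk+/+ chimeras was analysed, 1 library per mouse, grouped by the sample titles. The authors prepared stranded poly-A libraries and, per the labels, used FastQC, STAR 2.7.8a, GRCm39 and DESeq2 1.30.0. The values they deposited, in a table of 26008 genes, are normalized counts, a signal in which the reads of each library are scaled by its size factor. In 7 libraries 100% of values came in whole steps, from which reads were recovered (33.1 M to 50.7 M). In penk-/- replicate 1 the step was too close to 1 to be checked, so that the planned edgeR 4.0.16 and DESeq2 1.42.0 tests used 7 libraries.

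The 10 genes and the lists were chosen with earlier results of these data known. Identifiers were matched to GENCODE M39 on GRCm39 (25776 of 26008). The genotype effect was fitted with the limma package, version 3.58.1 (R 4.3.3, trended eBayes, two-sided), on log2(value + 1) for the 19127 genes with a mean of at least 10, with Benjamini-Hochberg adjustment over all of them, and by exact permutation of the 70 assignments for single genes. The procedure was tested on simulated data. Depth limits Cyp11a1 most, with 11 to 32 reads per library. Genes named are the 10 genes, those of the pathway lists with an unadjusted p below 0.05 or the highest mean, the 3 genes most correlated with each of the 10, and marker and clock genes beside a result. H6pd, Nr5a2, Scnn1a, Star, Mc2r, Klf15 and Mt1 were named after their values were seen. A gene of the sodium transport list and a gene most like Hsd11b1 are not reported here. Levels per kb use the length of the canonical transcript. Alternatives were pseudocounts of 0.1 and 8, other filters, no trend, quantile normalization, a block, covariates, and libraries left out. Python 3.11.15, numpy 2.4.6, pandas 2.3.3 and matplotlib 3.10.9 were used.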

Additional observations from a re-analysis of the deposited data

Results flagged for a closer look

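In groups of 4 mice, a library was held to stand far from the others when its gap to the nearest value divided by the range of the group exceeded Dixon's 95% critical value. Of 20 groups examined, 10 genes in each genotype, 2 had such a library, and chance gives about 1 in 20 groups, or 1 here. Both concerned Zbtb16. In penk-/- replicate 3 Zbtb16 had 744.3 normalized counts, with a gap of 0.986 of the range, whereas the other penk-/- chimeras had 404 to 409. In penk+/+ replicate 4 it had 911.5 normalized counts, with a gap of 0.866 of the range, whereas the other penk+/+ chimeras had 526 to 578. These are the 2 libraries with the most Pbsn, and what part the tissue they hold has in the Zbtb16 values was not tested.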

How the results depend on the processing

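Over 20 alternative settings (19 for Cyp11a1), 9 of the 10 genes kept the direction of their difference. The exception was Sgk1, whose log2 fold change was -0.04 without penk-/- replicate 3 and -0.0552 without penk-/- replicate 4 (range without single libraries -0.0552 to 0.287). Klf9 had an unadjusted p below 0.05 in 20 of 20 settings, Nr3c2 in 18 and Hsd11b2 in 10. Nr3c1 and Hsd11b1, both higher in penk-/- chimeras, had such a p in 3 settings each. It was reached in 2 settings each by Zbtb16 and Fkbp5, in 1 each by Tsc22d3 and Cyp11a1, and in 0 by Sgk1. The count of genes called over all genes was 0 with 8 libraries, 1 with quantile normalization, 1 with the epithelium minus smooth muscle score as a covariate, 0 to 6 with single libraries left out (6 without penk-/- replicate 1), 5 with edgeR and 367 with DESeq2 on 7 libraries. DESeq2 called 2 of the 10 genes, Nr3c2 (-0.42, adjusted p = 0.0396) and Klf9 (-0.30, adjusted p = 0.0443); the adjusted p of these genes ranged up to 0.714 and 0.633 over the alternatives. The cause was not tested, and these 7 libraries lack the only penk-/- value of Nr3c2 above a penk+/+ value. With the replicate number as a block, 1 gene was called over all genes and 6 of the 10 genes had an unadjusted p below 0.05 (3 without it), as had 2938 genes in all (1020 lower and 822 higher without it). The numbers do not pair the mice (correlations of the deviations between -0.32 and 0.15, and 0 penk-/- libraries correlated best with their own number). Genes with an unadjusted p below 0.05 among chaperones numbered 0 without the filter and 2 in the 6 libraries without the highest Pbsn, an alternative chosen after seeing the data, and among steroid synthesis genes 1 in these 6 libraries. Among all genes tested in these 6 libraries, 4.7% were lower and 4.36% higher with such a p.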
